A study of Canis lupus familiaris with 8 samples.

Results

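The genes described here encode voltage-gated calcium and sodium channels and the potassium channels, with the auxiliary subunits that travel with them. They were taken by symbol: every row whose name starts with KCN, CACN or SCN, leaving out the SCNN and SCNM names, gave 132 of the 24580 rows of the deposited tables. Of these, 120 had at least 20 reads summed over the 8 libraries and are the members, among 16952 rows that passed the same minimum. Another 12 rows stayed under it, 5 of them with no read at all. Nearest to the minimum were KCNJ15 with 20 reads, KCNE1 with 21 and CACNA1F with 23 on the inside, and KCNG4 with 17, KCNMB3 with 13 and KCNK18 with 10 on the outside. The members comprised 119 channel gene rows and 1 non-coding row of the KCNQ1 locus, KCNQ1OT1_5.

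Messenger RNA had been sequenced from the pituitary and the adrenal cortex of adult dogs of 2 breeds, the Beagle and the Chinese Field Dog. One arm of each breed was labelled as having had chronic stress exposure, and the other carried the label non-disposal, read here as unexposed. Each combination of gland, breed and exposure was a single library, so the 8 libraries formed 8 groups. Nothing in the labels tells single dogs from pools or says if the same animals gave both glands, and the extraction note named spleen. P-values therefore measure only the spread between these libraries. In the comparison of glands that spread includes differences of breed and exposure. In the adrenal fits, breeds stood in as replicates for stress and exposures for breed. The rest of the spread may be technical.

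Voltage-gated calcium and sodium channels open when the cell membrane depolarises and let in the calcium or sodium that drives electrical firing and hormone release, while potassium channels pull the membrane back and set its resting voltage. Anterior pituitary cells fire calcium-dependent action potentials that feed secretion. Adrenocortical cells rest at a strongly negative voltage held by background potassium channels, and angiotensin, potassium and adrenocorticotropic hormone act on those cells by depolarising them.

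Recovered reads per library ranged from 14327357 to 18712035. Marker genes matched the labelled tissues. The 7 measured adrenal cortex markers summed to between 13993 and 18386 FPKM in the adrenal libraries and between 45.8 and 72.7 in 3 pituitaries, and the anterior pituitary markers to at least 82343 FPKM in those pituitaries and at most 54.1 in the adrenal cortex. FPKM scales the reads of a gene by its transcript length and by the size of the library. In the adrenal cortex, 5 zona glomerulosa markers summed to 673 to 816 FPKM. The adrenal libraries also carried transcripts of the adrenal medulla, whose 14 markers summed to between 5162 and 9432 FPKM. Whether cortical or medullary cells carried the channel transcripts of these libraries was not tested. The stressed Chinese Field Dog pituitary held brain transcripts: 12 forebrain neuron markers summed to 750 FPKM there, against 4.83 to 7.07 in the other 3 pituitaries. It was therefore kept out of the comparison of glands and is described apart. In such bulk samples, fewer cells of a type and less RNA per cell cannot be told apart.

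The 3 remaining pituitary libraries were compared with the 4 adrenal cortex libraries. Of the 120 members, 59 were higher in the pituitary (49.2%) and 26 were higher in the adrenal cortex (21.7%) by limma with Benjamini-Hochberg adjustment over all 16952 rows. Over all rows 61.8% were called, 31.7% higher in the pituitary and 30.0% higher in the adrenal cortex. The median log2 difference, pituitary minus adrenal cortex, was 0.66 over the members and 0.03 over all rows. Libraries of the glands did not overlap in 58 members higher in the pituitary and in 27 higher in the adrenal cortex, where 33.0% and 31.1% of all rows did so. Differences are on the scale of log2(FPKM + 0.1), which understates changes in genes of low level. Of the 120 members, 113 had at least 20 reads over the 7 libraries compared. The rest reached that minimum only with the stressed Chinese Field Dog pituitary. In each gland taken alone 90 had at least 20 reads, so some differences rest on a gene barely read in 1 gland.

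**Figure D1:**
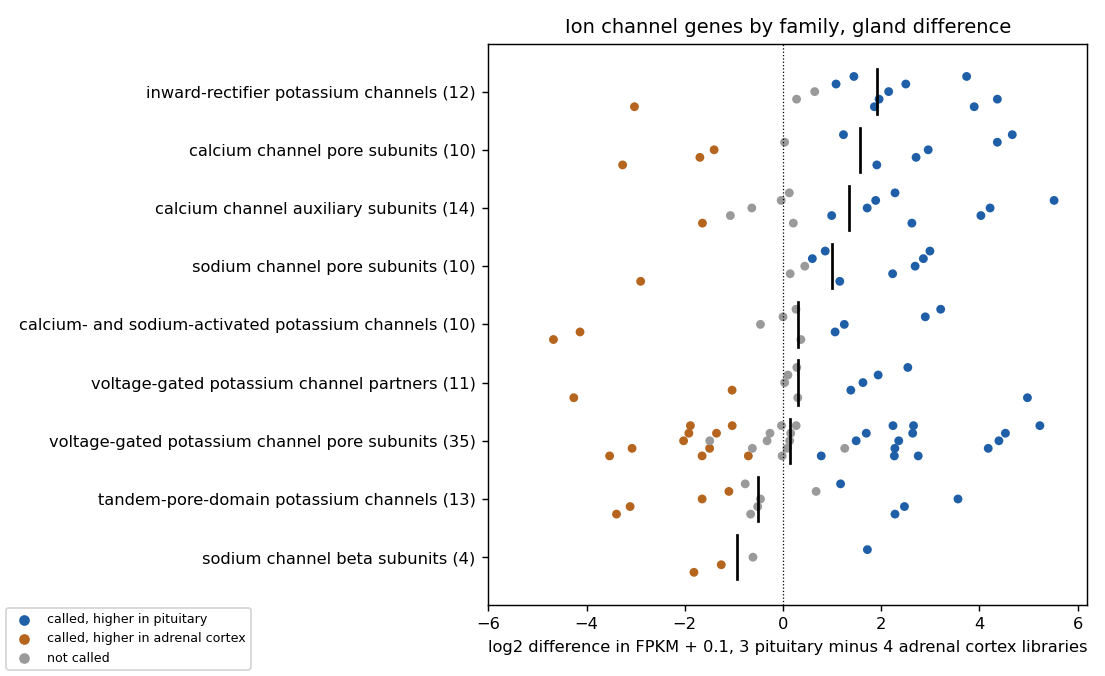
Log2 difference in FPKM + 0.1 between 3 pituitary and 4 adrenal cortex libraries (x axis) for 119 channel genes grouped by family (y axis, number of members in brackets). Each point is a gene, coloured by whether limma called it at an adjusted p under 0.05, and black bars are family medians, from 1.91 in the inward rectifiers to -0.93 in the sodium channel beta subunits.

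Among the calcium channel pore subunits, 6 of 10 were higher in the pituitary, 3 were higher in the adrenal cortex and 1, the scarcely read CACNA1F, was not called. CACNA1H is a low-threshold T-type channel known for its part in aldosterone production (gene ENSCAFG00000019596, CanFam3.1 chromosome 6, 39508621 to 39533753). It read 87.5, 95, 111 and 78.8 FPKM in the adrenal cortex of the unexposed Beagle, stressed Beagle, unexposed Chinese Field Dog and stressed Chinese Field Dog, the order kept below. The pituitary values, for the unexposed Beagle, the stressed Beagle and then the unexposed Chinese Field Dog, were 37.9, 30.9 and 36.2 FPKM. Every adrenal library thus lay above every pituitary library, at 93.0 ± 13.5 (SD, n = 4) against 35.0 ± 3.62 (SD, n = 3), and the limma log2 difference was -1.40 (SE 0.13, adjusted p = 2.98e-05). CACNA1H nevertheless had the highest FPKM of the pore subunits in both glands.

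CACNA1I, another T-type channel, read 8.06, 8.61, 5.73 and 5.36 FPKM in the adrenal cortex and 0.547, 0.647 and 0.664 in the pituitary (log2 -3.26, SE 0.22). CACNA1C, an L-type channel of heart and smooth muscle, read 18.1, 14.0, 8.97 and 7.78 against 4.27, 3.53 and 2.85 (log2 -1.69, SE 0.29). Both sets of libraries were separate, and in both genes the 2 Beagle adrenal libraries were the higher ones. Smooth muscle and pericyte markers summed to 128 to 170 FPKM in the adrenal cortex and 30.3 to 34.1 in the pituitary. Their part in the CACNA1C difference was not tested.

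The third T-type channel, CACNA1G, went the other way, with 0.901, 0.707, 0.930 and 0.299 FPKM in the adrenal cortex and 7.23, 5.56 and 4.84 in the pituitary (log2 2.96, SE 0.35). The L-type channel CACNA1D, which opens at lower voltages than CACNA1C and supports pacemaking, read 2.91, 3.23, 2.85 and 1.48 against 22.1, 14.4 and 15.5 (log2 2.71, SE 0.28). So the T-type and the L-type groups each held members called in opposite directions. In the pituitary the CACNA1D mean of 17.3 ± 4.16 FPKM (SD, n = 3) stood above the CACNA1C mean of 3.55, whereas in the adrenal cortex CACNA1C at 12.2 ± 4.75 (SD, n = 4) stood above CACNA1D at 2.62.

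The channels of nerve terminals and neuroendocrine cells were higher in the pituitary. CACNA1A, the P/Q-type pore (chromosome 20, 48821024 to 49036102), read 0.223, 0.301, 0.186 and 0.145 FPKM in the adrenal cortex and 10.4, 7.43 and 6.02 in the pituitary (log2 4.67, SE 0.28, limma adjusted p = 2.74e-06). CACNA1E, the R-type pore, read 0.225, 0.0844, 0.0901 and 0.0684 against 5.54, 3.97 and 3.40 (log2 4.36, SE 0.31). CACNA1B, the N-type pore, had a smaller difference (log2 1.91, SE 0.40), with 2.94, 1.94, 1.54 and 0.705 FPKM against 7, 5.98 and 5.87. In all 3 genes no adrenal library reached the lowest pituitary library. The 9 general neuron markers, which neuroendocrine cells can also express, summed to 182 to 582 FPKM in the adrenal cortex and 389 to 424 in the 3 pituitaries, and neurons and endocrine cells were not separated. Their part in these differences was not tested.

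Of 14 calcium channel auxiliary subunits, 8 were higher in the pituitary, 1 was higher in the adrenal cortex and 5 were not called. CACNG6, a gamma subunit (chromosome 1, 103228404 to 103243229), had no read in any adrenal library and read 5.03, 5.91 and 3.03 FPKM in the pituitary, on 150 reads in all. Against a floor of 3 reads over the adrenal group it was 59.5-fold higher. CACNG5, a related gamma subunit, read 0.520, 0.887, 0.678 and 0.468 against 16.1, 11.2 and 13.1 (log2 4.22, SE 0.24).

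CACNA2D2, an alpha-2-delta subunit that raises the number of channels at the surface, read 2.95, 2.21, 1.76 and 1.90 FPKM in the adrenal cortex and 22.4, 47.6 and 47.1 in the pituitary (log2 4.03, SE 0.29). The unexposed Beagle pituitary was lower than the other pituitary libraries but far above the adrenal cortex. CACNA2D3, of the same subfamily, was the one auxiliary subunit higher in the adrenal cortex, at 15.8, 13.7, 10.9 and 11.1 against 2.72, 3.98 and 5.97 (log2 -1.64, SE 0.25). CACNA2D1, the auxiliary subunit with the highest adrenal level, read 22.6 to 32.3 FPKM in the adrenal cortex and 28.6 to 32.5 in the pituitary (log2 0.13, SE 0.13, limma adjusted p = 0.396), so the glands overlapped, and its sign turned when the libraries were centred on their medians (log2 -0.00158).

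**Figure D2:**
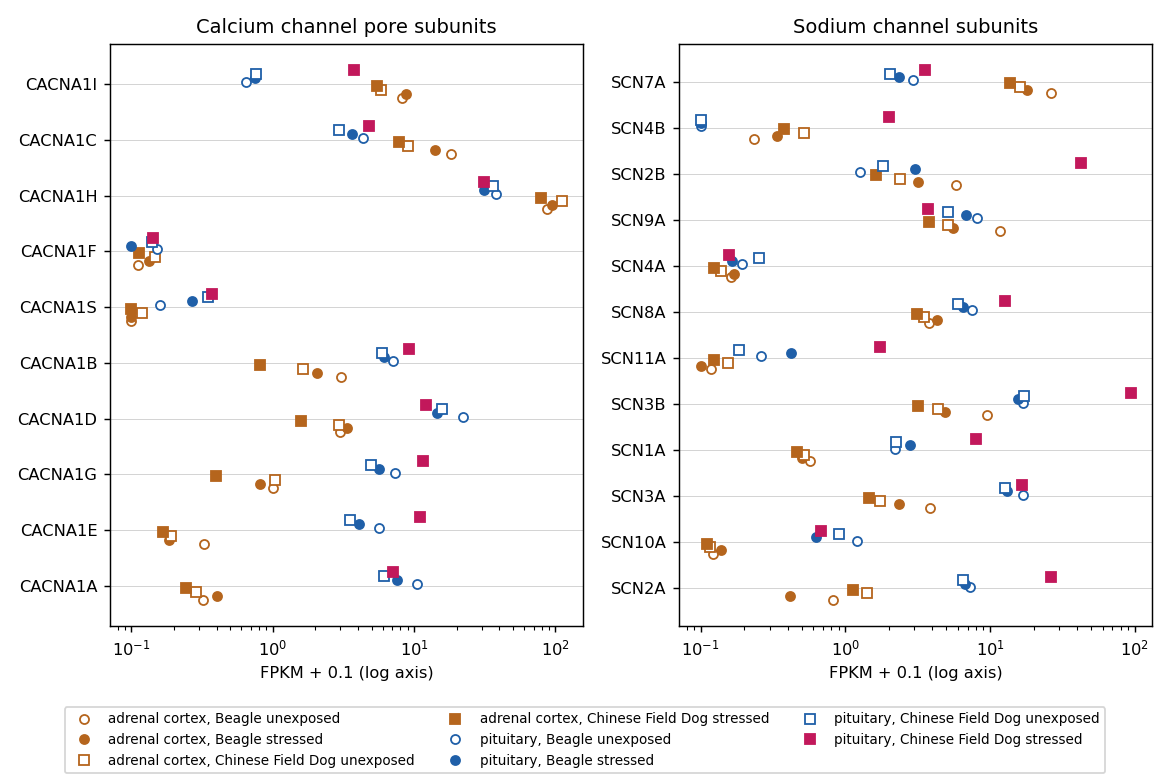
FPKM + 0.1 on a log axis for the 10 calcium channel pore subunits (left) and 12 sodium channel subunits (right), with 1 point per library, coloured by gland, with circles for Beagle, squares for Chinese Field Dog and filled symbols for stressed. CACNA1I, CACNA1C, CACNA1H and SCN7A are higher in the adrenal cortex. In its own colour, the stressed Chinese Field Dog pituitary stands far to the right in SCN2B and SCN3B.

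Sodium channel pores followed the same broad split, with 7 of 10 higher in the pituitary, 1 higher in the adrenal cortex and 2 not called. SCN3A and SCN2A are tetrodotoxin-sensitive channels of neurons and endocrine cells. SCN3A, which had the highest pituitary FPKM of the sodium channel pores, read 3.75, 2.25, 1.64 and 1.36 in the adrenal cortex and 16.9, 13.1 and 12.5 in the pituitary (log2 2.69, SE 0.31). SCN2A read 0.723, 0.315, 1.31 and 1.03 against 7.22, 6.57 and 6.45 (log2 2.99, SE 0.39, limma adjusted p = 0.000216). SCN8A, which carries much of the firing current of axons, differed less, at 3.67, 4.21, 3.39 and 3.02 FPKM against 7.39, 6.36 and 5.89 (log2 0.86, SE 0.16). None of these 3 genes overlapped between the glands.

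SCN7A, a sodium-sensing channel that is not gated by voltage in the usual way, was the pore higher in the adrenal cortex. It read 26.1, 17.9, 16.0 and 13.7 FPKM there and 2.83, 2.26 and 1.93 in the pituitary (log2 -2.90, SE 0.23). SCN9A, known from sensory and sympathetic neurons, was not called, with 11.7, 5.43, 5 and 3.71 against 8.09, 6.75 and 5.03 (log2 0.15, SE 0.36, limma adjusted p = 0.742), and its sign turned under several alternatives. These 5 pores do not sit apart in the genome: the deposited tables place SCN3A (chromosome 36, 10298798 to 10405347), SCN2A (36, 10517617 to 10602685), SCN1A (36, 11105928 to 11183496), SCN9A (36, 11287014 to 11382851) and SCN7A (36, 11480768 to 11561455) along 1 stretch of CanFam3.1. SCN1A was higher in the pituitary (log2 2.23, SE 0.22). Adjacent genes of this cluster thus included calls in both directions. They are close paralogs, and how reads shared between them were counted is not given in the sources used here.

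Of 4 beta subunits, which modify gating and adhesion of the pores, 1 was higher in the pituitary, 2 were higher in the adrenal cortex and 1 was not called. SCN3B read 9.40, 4.82, 4.27 and 3.08 FPKM in the adrenal cortex and 16.9, 15.6 and 17.2 in the pituitary (log2 1.72, SE 0.32, limma adjusted p = 0.00171), with no overlap. SCN2B read 5.69, 3.06, 2.30 and 1.53 against 1.16, 2.92 and 1.72, so its libraries overlapped (log2 -0.61, SE 0.45, limma adjusted p = 0.269). The adrenal-higher call of SCN4B rested on 9 adrenal reads and no read in the 3 pituitaries compared, 2.42-fold against a floor of 3 reads. SCN4B passed the read minimum for members only through the stressed Chinese Field Dog pituitary, which is outside this comparison.

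Potassium channels included the members with the most negative differences. Of 10 calcium- and sodium-activated potassium channel genes, 4 were higher in the pituitary, 2 were higher in the adrenal cortex and 4 were not called. The 2 were KCNN2 and KCNN1, small-conductance channels opened by calcium. KCNN2 (gene ENSCAFG00000000220, chromosome 11, 4279399 to 4423474) read 42.2, 53.8, 48.5 and 55.7 FPKM in the adrenal cortex and 1.49, 1.96 and 2.18 in the pituitary. Its log2 difference of -4.67 (SE 0.15, limma adjusted p = 1.59e-07) was the most negative of all members. KCNN1 read 27.6, 28.1, 24.7 and 30.2 against 1.10, 1.37 and 2.13 (log2 -4.13, SE 0.20). In both genes the spread within the adrenal cortex was small beside the gap between glands.

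KCNN3, the remaining classical member of that subfamily, went the other way, with 2.10, 1.92, 1.40 and 1.02 FPKM in the adrenal cortex and 19.7, 10.4 and 8.87 in the pituitary (log2 2.90, SE 0.33), and was picked for mention after its values were seen. KCNMA1, the pore of the large-conductance channel that shapes pituitary bursting, did not differ detectably, at 9.43, 7.03, 5.18 and 6.53 against 7.97, 5.92 and 6.91 (log2 0.00, SE 0.20, limma adjusted p = 0.998). Its partner KCNMB4, the beta subunit typical of neurons, read 17.6, 9.26, 8.93 and 13.9 FPKM in the adrenal cortex and 129, 115 and 92.9 in the pituitary (log2 3.21, SE 0.24). That high FPKM came from few reads, 764 in the 3 pituitaries, because the row yields only 2.13 scaled counts per FPKM.

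Inward rectifiers were higher in the pituitary in 9 of 12 cases, with 1 higher in the adrenal cortex and 2 not called. The one exception, KCNJ5, had the highest level of its family in both glands. KCNJ5 is the G-protein-gated channel whose mutations are known from aldosterone-producing adenomas (gene ENSCAFG00000010255, chromosome 5, 5736510 to 5760798). It read 95.8, 119, 110 and 119 FPKM in the adrenal cortex and 10.5, 15.5 and 15.1 in the pituitary (log2 -3.02, SE 0.15, limma adjusted p = 1.08e-06). Its partners in G-protein-gated channels showed the reverse. KCNJ3 read 0.957, 0.930, 0.579 and 1.14 against 19.0, 12.1 and 9.47 (log2 3.74, SE 0.29), and KCNJ6 read 0.344, 0.137, 0.183 and 0 against 3.16, 3.43 and 3.54 (log2 3.89, SE 0.46).

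The adrenal cortex therefore had a KCNJ5 mean of 111 ± 10.8 FPKM (SD, n = 4) beside a KCNJ3 mean of 0.903 ± 0.236 (SD, n = 4). In the pituitary the 2 means were close, 13.7 ± 2.79 and 13.5 ± 4.94 FPKM (SD, n = 3 each), and did not differ beyond their spread. KCNJ16, an inward rectifier that pairs with other Kir subunits, read 0.0628 FPKM in the unexposed Beagle adrenal cortex and 0 in the rest, against 3.26, 1.81 and 1.87 in the pituitary (log2 4.37, SE 0.32). KCNJ11, the pore of the ATP-sensitive channel, read 0.409, 0.428, 0.271 and 0.0707 against 1.80, 1.69 and 2.42 (log2 2.50, SE 0.41).

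Tandem-pore-domain channels carry background potassium current, and 4 of 13 were higher in each gland, with 5 not called. KCNK2, the mechanically and lipid-gated channel known to hold the resting voltage of cortisol-producing cells (chromosome 7, 12962635 to 13093442), read 123, 95.6, 99.4 and 122 FPKM in the adrenal cortex and 9.74, 11.9 and 9.53 in the pituitary (log2 -3.39, SE 0.13, limma adjusted p = 2.77e-07). KCNK3, an acid-sensitive channel of aldosterone-producing cells (chromosome 17, 20732818 to 20768730), read 97.1, 62.7, 86.8 and 64.8 against 9.51, 6.81 and 10.4 (log2 -3.11, SE 0.20). Both were separate between the glands by a wide margin. KCNK9, the close relative of KCNK3, was lower in level, at 5.97, 3.75, 3.01 and 3.76 against 3.43, 1.66 and 2.13, and was not called (log2 -0.77, SE 0.30, limma adjusted p = 0.0514), although it passed without the unexposed Beagle pituitary (adjusted p = 0.0170) or without the unexposed Chinese Field Dog adrenal cortex (adjusted p = 0.0406). KCNK9 was also called in limma with the breed-by-exposure pairs as a block (log2 -0.80, adjusted p = 0.0165), with breed and exposure as covariates (adjusted p = 0.0174) and with median centring (adjusted p = 0.0239).

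The summed FPKM of the 13 tandem-pore genes was 168 to 233 in the adrenal cortex and 34.2 to 40.4 in the 3 pituitaries. For the 12 inward rectifiers the sums were 105 to 127 and 47.2 to 58.8. Thus both families had the larger summed level in the adrenal cortex, although 9 of the 12 inward rectifiers were called higher in the pituitary. KCNK1, a weakly conducting member of the tandem-pore family chosen after its values were seen, was among those higher in the pituitary (log2 3.56, SE 0.27), at 0.623, 1.03, 0.565 and 0.460 FPKM in the adrenal cortex and 9.30, 7.34 and 9.60 in the pituitary.

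Voltage-gated potassium channel pores were called in both directions. Of 35 members, 14 were higher in the pituitary, 10 were higher in the adrenal cortex and 11 were not called, with a median log2 of 0.14. KCNQ1, the pore of the slow delayed rectifier, read 37.8, 48.5, 49.7 and 53.8 FPKM in the adrenal cortex and 5.36, 5.36 and 5.82 in the pituitary (log2 -3.07, SE 0.13, limma adjusted p = 4.04e-07). Its listed locus (chromosome 18, 46311864 to 46829537) is shared by 12 other rows, TH and INS among them, so its boundaries are uncertain. In all, 21 members share a listed locus with another row, among them KCNH1, KCNK17, CACNA2D3, CACNA1C and CACNA1I. KCNE4, a subunit that damps KCNQ1, read 19.0, 26.3, 23.4 and 17.8 against 1, 0.820 and 1.29 (log2 -4.26, SE 0.19). KCNQ1OT1_5, the non-coding row of the KCNQ1 locus, was called higher in the pituitary (log2 1.04, SE 0.40, limma adjusted p = 0.0488), a call lost under 11 of its alternatives.

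KCNH1, a slowly activating channel otherwise known from brain, read 2.42, 1.75, 2.30 and 1.35 FPKM in the adrenal cortex and 0.109, 0.0580 and 0.0585 in the pituitary (log2 -3.53, SE 0.28). KCNA4, a rapidly inactivating channel reported in aldosterone-producing cells, read 4.12, 4.81, 5.35 and 4.12 against 2.52, 1.20 and 1.24 (log2 -1.49, SE 0.27). In KCNH1 and KCNA4 alike, every adrenal library exceeded every library of the 3 pituitaries.

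KCNC2, a fast-deactivating Kv pore noticed after its values were seen, gave opposite answers by unit. Its FPKM was higher in the adrenal cortex, at 1.49, 1.61, 1.56 and 1.02 against 0.697, 0.83 and 0.954 in the 3 pituitaries (limma log2 -0.70, adjusted p = 0.0319), while the log2 ratio of its scaled counts, pituitary over adrenal cortex, was 1.17. Scaled counts per FPKM, which reflect the transcript length used in the FPKM, were 70.0 in the pituitary and 18.1 in the adrenal cortex. No other of 59 members with at least 100 reads in each gland differed in this by 1.5-fold or more, and 0.118% of 12763 rows did. Which transcripts of KCNC2 were read was not tested.

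In the pituitary the Kv genes that stood out were KCNH6, KCNB2, KCNV2, KCNH8 and KCNA5. KCNH6, of the ether-a-go-go-related group that sets resting excitability in pituitary cells (chromosome 9, 11538561 to 11559295), read 0.274, 0.190, 0.169 and 0.132 FPKM in the adrenal cortex and 10.8, 8.78 and 12.8 in the pituitary (log2 5.23, SE 0.25, limma adjusted p = 8.72e-07). Its relative KCNH2 was at a like level in both glands, with 16.0, 16.6, 26.7 and 17.1 against 14.3, 14.5 and 17.9 (log2 -0.26, SE 0.19, limma adjusted p = 0.245). KCNA5, a delayed rectifier, had the highest pituitary FPKM of the family, at 42.5, 24.9 and 28.2 against 7.80, 4.18, 3.14 and 4.01 in the adrenal cortex (log2 2.75, SE 0.31).

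KCNB2, a delayed rectifier pore, read 0, 0.248, 0.110 and 0 FPKM in the adrenal cortex and 5.31, 4.37 and 2.16 in the pituitary (log2 4.53, SE 0.52), on 3 adrenal and 102 pituitary reads. KCNV2, a silent subunit that works only inside mixed channels, had no adrenal read and 256 reads in the 3 pituitaries. Against a floor of 3 reads it was 102-fold higher. Of the partners of these pores, 5 of 11 were higher in the pituitary, 2 were higher in the adrenal cortex and 4 were not called. KCNIP1, a calcium sensor bound to rapidly inactivating Kv channels, read 0.0199 to 0.0354 in the adrenal cortex and 4.99, 2.32 and 4.87 in the pituitary (log2 4.98, SE 0.31).

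**Figure D3:**
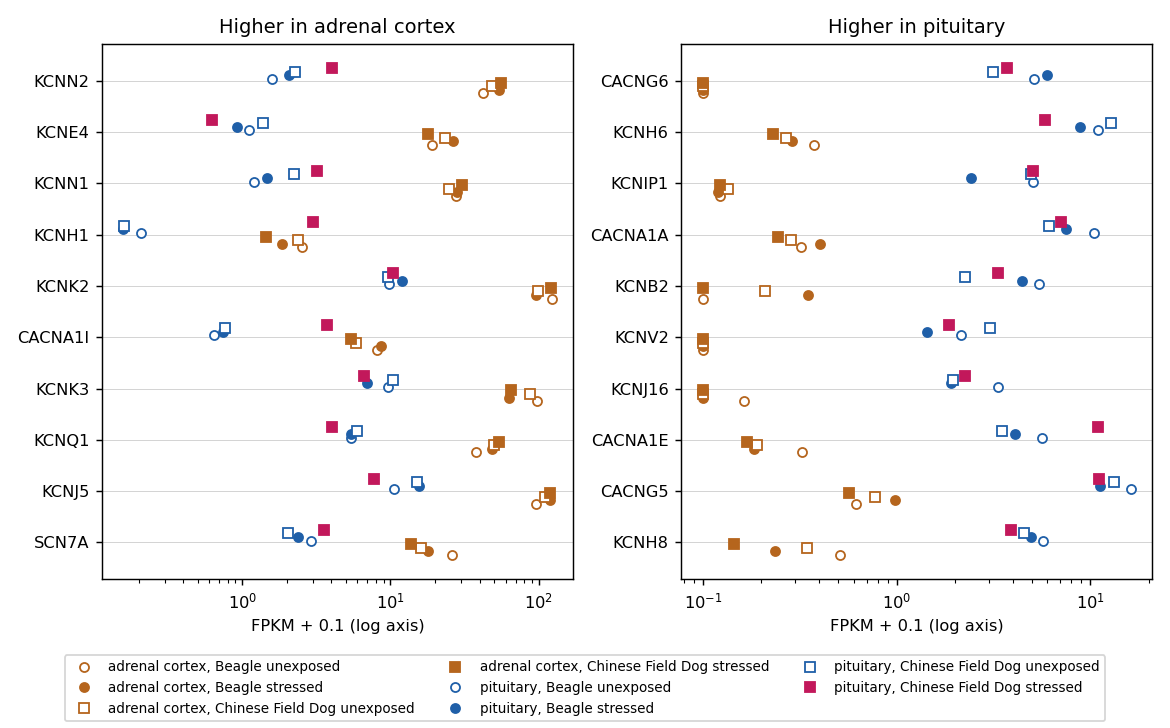
FPKM + 0.1 on a log axis in each of the 8 libraries for the 10 members with the most negative (left) and the 10 with the most positive (right) log2 difference between glands, among called members whose libraries do not overlap. KCNN2 leads on the left at 42.2 to 55.7 FPKM in the adrenal cortex, and CACNG6 leads on the right with all 4 adrenal libraries at 0, while the stressed Chinese Field Dog pituitary lies at the adrenal level for KCNH1.

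The stressed Chinese Field Dog pituitary differed from the other 3 pituitaries in many channel genes. Of 104 members with at least 50 reads over the 4 pituitaries, 38 were at least 2-fold above the highest of the other 3 (36.5%), where 7.01% of 15202 rows were. That minimum counts the library itself, and 10 of the 104 reached it only through this library, 9 of them among the 38. With at least 50 reads in the other 3 pituitaries alone, a setting chosen after seeing the data, 29 of 94 members were at least 2-fold above (30.9%), where 5.75% of 14708 rows were. None was at least 2-fold below the lowest, where 1.07% of all rows were. In all, 68 members lay above all 3 other libraries (33.2% of all rows did) and 16 lay below all 3 (41.0% of all rows did). This is 1 library, so no test was made.

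By family, the members at least 2-fold above numbered 17 of 33 voltage-gated potassium pores, 7 of 13 calcium auxiliary subunits, 3 of 3 sodium beta subunits, 3 of 10 sodium pores, 3 of 10 inward rectifiers, 2 of 9 tandem-pore channels, 2 of 6 Kv partners, 1 of 9 calcium pores and 0 of 10 calcium- and sodium-activated channels. Over all rows 7.01% were. These counts use the minimum that includes this library, so they hold the 9 members that reached it only through this library. Differences between families were not tested. CACNG3, a gamma subunit that also escorts glutamate receptors, read 25.7 FPKM on 326 reads, while the other 3 pituitaries read 0.0747, 0.145 and 0 on 3 reads together. The ratio of the library to their mean was 355, with a counting interval of 120 to 1726. KCNG1, a silent subunit, read 14.1 FPKM on 444 reads against 0.0597, 0 and 0 on 2 reads, a ratio of 709 (counting interval 199 to 5993). Both genes were almost unread in the other pituitaries. KCNG1 passed the read minimum for members only through the stressed Chinese Field Dog pituitary, so its high value there is partly fixed by that minimum.

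KCNF1 and KCNV1 are silent subunits as well. KCNF1 read 40.8 FPKM against 0.743, 0.254 and 0.935 in the unexposed Beagle, stressed Beagle and unexposed Chinese Field Dog pituitaries, and KCNV1 read 8.70 against 0.159, 0.0864 and 0.116. The inward rectifiers KCNJ4 and KCNJ9, best known from brain, read 21.9 against 0.891, 1.25 and 1.06, and 8.4 against 0.258, 0.250 and 0.376. KCNH1 read 2.92, which lay above the highest adrenal value of 2.42, against at most 0.109 in the other pituitaries. These 5 genes, like CACNG3 and KCNG1, were named for a large ratio in this library. That it stood alone in them was therefore fixed by the choice.

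Sodium channel beta subunits were among the members above the other 3 pituitaries. SCN2B read 42.3 FPKM against 1.16, 2.92 and 1.72, and SCN3B read 94.1 against 16.9, 15.6 and 17.2. SCN4B had 16 reads there and none in the other 3, 17.4-fold against a floor of 3 reads. It passed the read minimum for members only through the stressed Chinese Field Dog pituitary. Its high value in that library is therefore partly fixed by the minimum. With this library included in the comparison of glands, 17 members, not 26, were higher in the adrenal cortex by limma.

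A few members that were higher in the pituitary than in the adrenal cortex read lower in this library. CACNA2D2 read 12.1 FPKM against 22.4, 47.6 and 47.1, KCNH6 read 5.75 against 10.8, 8.78 and 12.8, and CACNA1D read 12 against 22.1, 14.4 and 15.5. Beside these values, 12 of 12 forebrain neuron markers, 9 of 9 general neuron markers and 10 of 10 astrocyte and oligodendrocyte markers were above all 3 other pituitaries. General neuron markers summed to 1859 FPKM against 389 to 424, and glial markers to 696 against 41.8 to 127. NEUROD6, TBR1 and NEUROD2, transcription factors of forebrain neurons, were at 0 in the other 3 pituitaries and read 45.2, 10.5 and 10.4 here. Posterior lobe markers summed to 39.9 FPKM against 52.8 to 135. That list also summed to 59.6 to 72.9 FPKM in the adrenal cortex, so its sum is not particular to the posterior lobe. The part of all these markers in the channel values was not tested.

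The authors' deposited table marked 16 members as changed between the stressed and unexposed Chinese Field Dog pituitaries and 12 between the stressed pituitaries of the breeds, and 0 in the other 6 comparisons. Over all 24580 rows of the authors' deposited table, 1.41% and 1.53% were marked in those 2 comparisons and 0.163% to 0.342% in the other 6, so 0 of 120 members is near the share of all rows there. In the authors' deposited table an FDR under 0.05 was reached by KCNG1 in both of those comparisons and by CACNG3 in the first, each at 0.0141362. Those 2 comparisons share the stressed Chinese Field Dog pituitary.

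**Figure D4:**
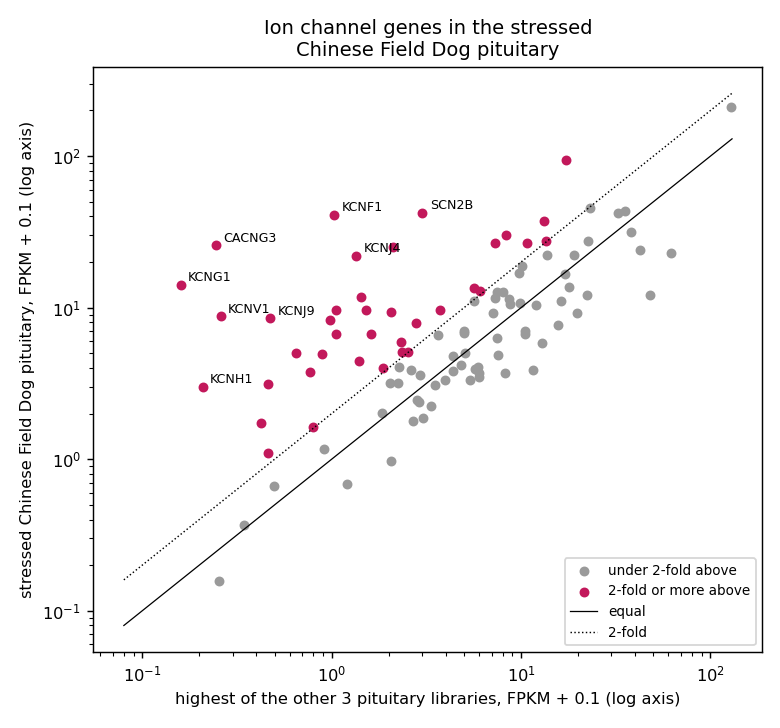
FPKM + 0.1 of 104 members in the stressed Chinese Field Dog pituitary (y axis) against the highest of the other 3 pituitary libraries (x axis), both on log axes, with lines of equality and of a 2-fold difference. The 38 coloured members lie at or above the 2-fold line, and the 8 labelled ones with at least 100 reads have the largest ratios, led by CACNG3 and KCNG1.

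The study also asked how chronic stress and breed relate to expression in each gland. In the adrenal cortex, limma with breed and exposure in 1 model of 4 libraries left 1 residual degree of freedom, and called 0 of 120 members for stress and 0 for breed (0% and 0% of all rows called). At an unadjusted p under 0.05 there were 16 members and 1029 rows for stress, and 22 members and 1964 rows for breed. Count models called more: edgeR called 3 members for stress (0.826% of all rows) and 12 for breed (3.82%). DESeq2 called 0 for stress and 4 for breed. Its shares, 0.252% and 1.42%, are of the 13885 and 14537 rows to which it gave an adjusted p, so they are not on the same base.

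For stress, edgeR's 3 calls were all lower in the stressed libraries and included CACNA1B and SCN9A. The N-type pore CACNA1B read 1.94 FPKM in the stressed and 2.94 in the unexposed Beagle adrenal cortex (log2 -0.57), and 0.705 against 1.54 in the Chinese Field Dog (log2 -1.03). SCN9A read 5.43 against 11.7 (log2 -1.09) and 3.71 against 5 (log2 -0.42). In both genes the stressed library was the lower one of each breed, although the ranges of the stressed and unexposed libraries overlapped. The edgeR log2 was -0.86 for CACNA1B and -0.75 for SCN9A, with adjusted p-values of 0.0442 and 0.0496, while limma gave -0.80 (SE 0.28) and -0.76 (SE 0.23) with adjusted p-values of 0.798 and 0.786. In the single pairs, 8 of 74 members differed at least 2-fold in the Beagle, 1 higher and 7 lower. Over all rows 3.49% differed, 0.575% higher and 2.92% lower. In the Chinese Field Dog 4 of 66 did, all lower, where 1.88% of all rows differed, 0.744% higher and 1.14% lower. Median log2 ratios over the members were -0.20 and -0.22, beside 0.00 and 0.01 over all rows.

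For breed, KCNV1 was higher in the Chinese Field Dog adrenal cortex at both exposures, at 1.11 against 0.117 FPKM unexposed and 1.12 against 0.346 stressed (log2 2.48 and 1.45). The edgeR log2 was 2.34 with an adjusted p of 0.000980, and limma gave 1.96 (SE 0.41) with an adjusted p of 0.306. CACNA1C, lower in both Chinese Field Dog libraries, had an edgeR log2 of -0.91 with an adjusted p of 0.000982, and limma gave -0.92 (SE 0.14) with an adjusted p of 0.263. At least 2-fold differences between breeds numbered 11 of 72 members unexposed, 2 higher and 9 lower in the Chinese Field Dog. Over all rows 5.24% differed, 1.81% higher and 3.43% lower. In the stressed pair there were 9 of 66, 5 higher and 4 lower, where 3.52% of all rows differed, 1.54% higher and 1.98% lower.

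Summed FPKM of all 120 members was 860 to 962 in the 4 adrenal libraries. Gene by gene, the highest and lowest values were not shared evenly between these libraries. Over 82 members with at least 50 adrenal reads, the unexposed Beagle library had the highest value in 39 (47.6%, against 29.0% of 14307 rows), and the stressed Chinese Field Dog library the lowest in 38 (46.3%, against 31.9%). KCNH7, a channel of the ether-a-go-go-related group, read 1.01 FPKM in the unexposed Beagle and 0.0692 to 0.155 in the other 3. It had 46 reads there and 3 to 9 in each of the others. The alkaline-activated KCNK17 read 2.21 against 0.361, 0.361 and 0.417, on 44 reads against 8 or 9. Both reached the minimum of 50 adrenal reads only with the unexposed Beagle library and were chosen after their values were seen. That they stood highest there was therefore partly fixed by the choice. Marker sums moved in the same order. Medulla markers summed to 9432, 8286, 5956 and 5162 FPKM, with 12 of 14 highest in the unexposed Beagle, and general neuron markers to 582, 239, 221 and 182, with 9 of 9 highest there. TH, DBH and PNMT, the catecholamine enzymes, were all highest in that library. The part of these markers' cells in the stress and breed values of the channel genes was not tested.

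**Figure D5:**
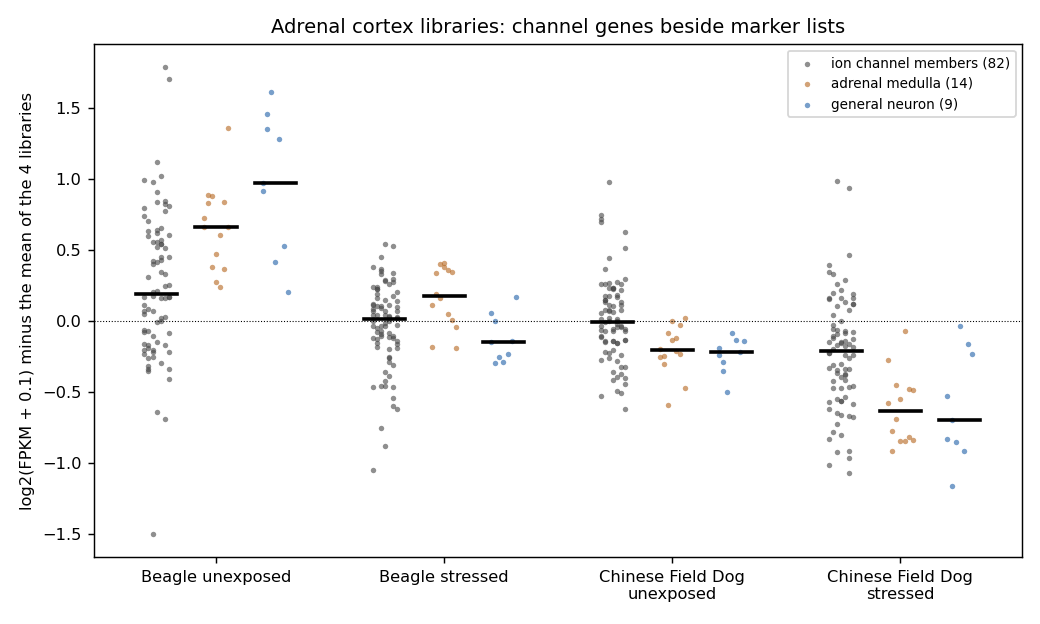
Deviation of log2(FPKM + 0.1) from the mean of the 4 adrenal cortex libraries (y axis) by library (x axis) for 82 channel members, 14 adrenal medulla markers and 9 general neuron markers, with 1 point per gene and black bars at the medians. Medians of the channel members run from 0.19 in the unexposed Beagle to -0.21 in the stressed Chinese Field Dog, and those of the medulla markers from 0.66 to -0.64.

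Among the pituitaries other than the stressed Chinese Field Dog library, differences between single libraries were fewer. Between the stressed and unexposed Beagle, 8 of 86 members differed at least 2-fold, 3 higher and 5 lower. Over all rows 2.66% differed, 1.60% higher and 1.06% lower. SCN2B stood at 2.92 FPKM against 1.16 (log2 1.26, counting interval 0.99 to 1.68), CACNA2D2 stood at 47.6 against 22.4 (log2 1.09), and KCNIP1 at 2.32 against 4.99 (log2 -1.07). Posterior lobe markers, which summed to 59.6 to 72.9 FPKM in the adrenal cortex, stood higher in the stressed Beagle, at 135 against 52.8. Glial markers also stood higher there, at 77.3 FPKM against 41.8. The part of these markers in these ratios was not tested. Between the unexposed breeds, 9 of 86 members differed, 3 higher and 6 lower in the Chinese Field Dog. Over all rows 4.33% differed, 2.51% higher and 1.82% lower.

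KCNQ3, a subunit of the muscarine-sensitive M-channel, read 0.427 FPKM in the Beagle pituitary without exposure and 0.990 with it, and 1.33 and 11.6 in that of the Chinese Field Dog. It was thus at least 2-fold higher with stress in both breeds (log2 1.05 and 3.04) and in the Chinese Field Dog at both exposures (log2 1.44 and 3.43). The Beagle ratio rests on 48 and 20 reads, with a counting interval of 0.43 to 2.04 on the log2 scale. CACNA2D3 was at least 2-fold higher in the Chinese Field Dog at both exposures (log2 1.10 and 1.65). One ratio of each of these pairs rests on the stressed Chinese Field Dog pituitary. In the pairs with that library, 48 members were at least 2-fold higher and 2 lower in each, of 101 members by stress and of 102 by breed. Over all rows 11.1% differed by stress, 8.91% higher and 2.18% lower, and 12.9% by breed, 9.79% higher and 3.15% lower. Those 2 comparisons share that library.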

How the data were processed

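Messenger RNA of 8 libraries was analysed, 1 for each combination of gland, breed and exposure. Reads were aligned with TopHat to CanFam3.1, per the submitters' processing notes; the counting program, annotation and strand setting are not given in the sources used here. The deposited tables, 8 in number, each hold for 2 libraries the authors' FPKM and a scaled count, which is a signal equal to reads divided by a size factor; repeated columns were identical in 16 of 16 cases. The authors' p-value, FDR and log2 ratio columns were used only where the authors' deposited table is named.

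Dividing scaled counts by their step gave reads, whole within 0.02 for 98.7% to 99.1% of values. In 2 libraries, the adrenal cortex of the stressed Beagle and the pituitary of the stressed Chinese Field Dog, the step was near 1, so reads there are taken as near the true counts. Log2(FPKM + 0.1) was fitted with limma 3.58.1 in R 4.3.3 (trended, robust), 3 pituitary against 4 adrenal cortex libraries, with Benjamini-Hochberg adjustment over 16952 rows with at least 20 reads and a threshold of 0.05. Alternatives were edgeR 4.0.16, which called 5429 rows higher in the pituitary and 4967 higher in the adrenal cortex, DESeq2 1.42.0, other pseudocounts and filters, covariates, a block and left-out libraries. Fits were also run on simulated data in which few rows differed between glands, unlike here, so that run says little about these calls. Pairs of single libraries had no test: members with at least 50 reads were counted at 2-fold. The 95% Clopper-Pearson counting intervals cover counting error only. Folds against the floor of 3 reads take the reads of the other group as exact, so they are not lower bounds.

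Members, families and marker lists were chosen with earlier results of these data known. Named genes were the 10 with the largest non-overlapping called difference in each direction at a mean FPKM of at least 1, channels with textbook roles in these glands, the highest of each family in each gland, the 8 with the largest ratio in the stressed Chinese Field Dog pituitary, and those 2-fold different in the same direction in both pairs of a gland, leaving out some members not reported here, which left 53 in all. GH1 is listed at 0 in the unexposed Beagle pituitary, as a failed estimate.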

Additional observations from a re-analysis of the deposited data

Results flagged for a closer look

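In 106 sets of 4 libraries, one for each named member and gland, 15 had a highest or lowest library that lay far from the other 3 by Dixon's test, which flags about 1 in 20 by chance in sets not chosen by their values. Here the members were partly named for their values: 6 of the sets below, those of CACNG3, KCNG1, KCNH1, KCNJ4, KCNJ9 and KCNV1 in the pituitary, were named for a high ratio in the stressed Chinese Field Dog library, so the 15 cannot be read against that rate. In 10 of the 15 the stressed Chinese Field Dog pituitary was highest: CACNA1I at 3.64 FPKM, CACNG3 at 25.7, KCNG1 at 14.1, KCNH1 at 2.92, KCNJ4 at 21.9, KCNJ6 at 6.49, KCNJ9 at 8.4, KCNV1 at 8.70, SCN2A at 26.5 and SCN3B at 94.1. For KCNJ6 the other 3 pituitaries read 3.16 to 3.54 FPKM. Forebrain, general neuron and glial marker sums were also highest in that library, and their part was not tested.

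The other 5 were spread over several libraries. In the adrenal cortex of the unexposed Chinese Field Dog KCNH2 read 26.7 FPKM, beside 16.0 to 17.1 in the other adrenal libraries. CACNA1D read 1.48 in the stressed Chinese Field Dog adrenal cortex and 2.85 to 3.23 in the rest. KCNIP1 read 2.32 in the stressed Beagle pituitary and 4.87 to 4.99 in the other pituitaries. KCNG1, at 0.0280 in the adrenal cortex of the unexposed Chinese Field Dog, and KCNJ16, at 0.0628 in that of the unexposed Beagle, stood against 0 in the other 3. Each of these 2 values is a single read, so any such set is picked out by construction.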

How the results depend on the processing

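Of the 53 named members, 41 kept their call and direction between glands under every alternative run, as did 39 of the 42 that were called. Members higher in the pituitary numbered 40 to 61 over all alternatives, 53 to 61 when 1 library was left out and 58 with breed and exposure pairs as a block. The 40 was at a mean FPKM of at least 1, where only 84 members were tested and 1 call among them was lost. Those higher in the adrenal cortex numbered 22 to 25 with 1 library left out, 26 with the block, and 17 with all 8 libraries. Centring libraries on their medians moved the median of all rows from 0.03 to -0.10 and gave 57 and 30 calls. Without the stressed Beagle pituitary 10 calls were lost. In the adrenal cortex, stress gave 3 calls with edgeR, and breed 12 with edgeR, 4 with DESeq2 and 3 at a mean FPKM of at least 1. With a pseudocount of 1, members 2-fold different numbered 2 and 2 by stress in the Beagle and Chinese Field Dog adrenal cortex, 5 and 2 by breed in the unexposed and stressed adrenal cortex, 1 by stress in the Beagle pituitary and 5 by breed in the unexposed pituitary. The count for the stressed Chinese Field Dog pituitary was 30 with a pseudocount of 1, 39 and 29 with minimums of 20 and 200 reads, and 29 with at least 50 reads in the other 3 pituitaries, settings chosen after seeing the data.

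Signs of log2 gland differences turned in members near 0 or high in the stressed Chinese Field Dog pituitary, and the cause was not tested. With all 8 libraries, CACNG3 was 0.76, KCNF1 0.13, SCN2B 0.51 and SCN9A -0.0604. With median centring, CACNA2D1 was -0.00158 and KCNMA1 -0.13. KCNMA1 was -0.0177 with edgeR, -0.0209 with DESeq2, -0.0241 with the pair block, -0.00139 with a pseudocount of 1 and -0.0906 with covariates, and ranged from -0.13 to 0.15 without 1 library. SCN9A was -0.0955 with covariates, -0.0689 with the pair block and ranged from -0.0689 to 0.47 without 1 library. KCNG1, nearly unread in both glands, ranged from -0.0889, without the unexposed Beagle pituitary, to 0.25 without 1 library. KCNF1 lost its adrenal-higher call (limma adjusted p = 0.0243) in 5 alternatives besides, without the unexposed Beagle, unexposed Chinese Field Dog or stressed Chinese Field Dog adrenal cortex, without the stressed Beagle pituitary, and with no filter (adjusted p 0.0527 to 0.0803). Depth limits members such as KCNE1, CACNA1F and KCNJ15, read 20 to 23 times in all.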

Other observations

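Genes that work beside these channels were called in both directions. Of 55 measured excitability genes that are not members, 30 were higher in the pituitary and 12 were higher in the adrenal cortex by limma, with a median log2 of 0.90. Over all rows 31.7% were higher in the pituitary and 30.0% higher in the adrenal cortex, and the median was 0.03. NALCN, the sodium leak channel that depolarises resting cells, was at 15.5 ± 1.68 FPKM (SD, n = 3) in the pituitary and 2.84 ± 1.19 (SD, n = 4) in the adrenal cortex, and its partner UNC80 at 22.5 ± 2.96 and 2.15 ± 0.734. Higher in the adrenal cortex were RIMS2, an organiser of vesicle release, at 48.8 FPKM against 7.71, and FGF12, an intracellular modulator of sodium channels, at 41.3 against 8.84. These genes were named after their values were seen.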
